A study of Mus musculus with 10 samples.

Results

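The levels of 10 genes that act before, or alongside, the recruitment of SMCHD1 to chromatin were read from RNA sequencing of the frontonasal prominence (FNP), the tissue that forms the forehead and nose, of mouse embryos at E10.5. The genes were picked by name from the table of read counts and are 10 of its 35542 genes. They comprise the PRC2 genes Ezh2, Ezh1, Eed, Suz12 and Jarid2, the non-canonical PRC1 genes Rnf2, Ring1, Pcgf3 and Pcgf5, and Hnrnpk. There were 4 MD1 libraries, 2 labelled female (replicates 1 and 4) and 2 labelled male (replicates 2 and 3), from embryos homozygous for MD1, a loss-of-function allele of Smchd1 that came from a chemical mutagenesis screen. They were set against 6 WT libraries, labelled 3 female and 3 male, from Smchd1 WT/WT embryos. Both genotypes were on the inbred FVB/NJ background, and the labels name no other allele and no treatment. Homozygous loss of Smchd1 is known to be lethal to female embryos, which limits what the libraries labelled MD1 female can stand for. The labels do not say whether a library holds 1 embryo or several, and p-values then speak only to the variation among these libraries, which may be technical in part.

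Polycomb proteins form 2 families of complexes that modify histones and keep developmental genes silent. PRC1 complexes attach ubiquitin to histone H2A through RNF2 (RING1B) or its paralogue RING1, and PRC2 methylates histone H3 through EZH2 or EZH1, held together by EED and SUZ12. On the inactive X chromosome of female cells, Xist RNA binds HNRNPK, which brings in PRC1 complexes built on PCGF3 or PCGF5. JARID2 reads the ubiquitin mark they leave and ties PRC2 to it, and SMCHD1 is recruited later through the same mark. In this series Smchd1 itself is the mutated gene. In that order Hnrnpk and the PRC1 genes act before the recruitment of SMCHD1, and the PRC2 genes act alongside it through the same mark. The comparison asks whether the RNA levels of the 10 genes differed when Smchd1 was lost.

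Total counts per library ranged from 4195119 in MD1 male replicate 3 to 24125084 in WT male replicate 3. Smchd1 was between 55.3 and 99.9 CPM (counts per 1000000 of the TMM-scaled library) in MD1 and between 229 and 265 CPM in WT, and its log2 fold change was -1.65 (SE 0.15, adjusted p = 0.000746). The library labelled MD1 female replicate 1 held reads from genes of the Y chromosome, against its label, with Ddx3y at 88.2 CPM. WT males had 78.2 to 91.4 CPM of Ddx3y. Its Xist, at 204 CPM, lay between the WT males (0.596 to 2.08 CPM) and the WT females (2594 to 2695 CPM) and so matched neither sex. The cause was not tested. MD1 female replicate 4 had 0 reads of Ddx3y and 6724 CPM of Xist. It also stood apart on the first principal component, at -91.7 on an axis that carried 37.3% of the variance. Markers of the FNP (13 of 13 tested, among them Alx1, Msx1 and Tfap2a) were present in every library, with a summed level of 1324 to 1753 CPM in MD1 and 1551 to 2013 CPM in WT. In MD1 female replicate 4, summed erythroid markers stood at 20271 CPM and summed genes of the hypoxia response at 13649 CPM. The WT ranges were 2989 to 4310 CPM for the erythroid list and 1209 to 2888 CPM for the hypoxia list. Summed markers of endothelium (7 of 7 tested) stood at 639 CPM in the same library, against 338 to 420 CPM in WT, and its FNP sum of 1324 CPM was the lowest of the 10 libraries. Markers of yolk sac endoderm and liver (7 listed, 3 of them tested) summed to 345 CPM in MD1 female replicate 1 as labelled and 89.8 CPM in MD1 female replicate 4, against 1.605 to 28.6 CPM in WT, with Afp, Ttr, Apob, Apoa4 and Alb at 0 in at least 1 library. Macrophage markers ranged from 26.5 to 30.7 CPM in MD1 and from 25.4 to 33.1 CPM in WT. Values with and without MD1 female replicate 4 are therefore given below.

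All 10 genes are autosomal, and each spans the same bases in the table and in GENCODE M21 (GRCm38). Rnf2 lies on chromosome 1 at 151458004-151500955 on the minus strand, and Ring1 on chromosome 17 at 34020792-34024680 on the minus strand. Pcgf3 lies on chromosome 5 at 108461232-108506976 and Pcgf5 on chromosome 19 at 36348309-36460970, both on the plus strand. Ezh2 is on chromosome 6 at 47530139-47595341 and Ezh1 on chromosome 11 at 101191115-101226463, both on the minus strand, with 21 merged exon blocks each. Eed is on chromosome 7 at 89954654-89980983 (minus), Suz12 on chromosome 11 at 79993106-80034123 (plus), Jarid2 on chromosome 13 at 44729474-44921643 (plus) and Hnrnpk on chromosome 13 at 58391142-58403343 (minus). For 6 of the 10, up to 6.82% of the exon bases lie over exons of a gene on the other strand, the highest share being that of Eed with E230029C05Rik. The library kit does not mark strand, so the few reads of those stretches cannot be assigned.

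Promoters were taken from RefSeq (GRCm38.p6), 250 bases before to 50 after each annotated start, and matched all 10 genes through 13 promoters. On both strands, 2 of the 13 held one of the 8-base words TTTGGCGC, TTTCCCGC, TTTGCCGC or TTTCGCGC, the binding word of E2F factors, which drive genes of dividing cells. Of all 32851 promoters of that length, 2.26% held one. The matches lay in Ezh2, 3 bases past its start, and in Suz12, at -219 from its start. A 5-base word of the hypoxia response element (ACGTG or GCGTG) stood in 9 of the 13 promoters (69.2%) and in 43.8% of all promoters. Of the Pcgf5 promoters, only promoter 3 held it. CCAAT stood in 7 of the 13 (53.8%) and in 37.4% of all promoters. The share of G and C bases ran from 48.3% to 78.7% in the 13 promoters. All promoters were not matched to them for this, so these shares cannot show an enrichment of a word. In no promoter of the 10 genes did an E2F match overlap a match of the other words. Of the 8 genes with the hypoxia word, 4 were at their highest (Ezh1, Suz12, Jarid2 and Pcgf5) and 3 at their lowest (Ezh2, Ring1 and Pcgf3) in the library with the highest hypoxia markers. Of the 2 genes without it, Eed was at its highest and Hnrnpk at its lowest there. That library was outside the range of the other 9 for 61.6% of all autosomal genes, and a link with the word was not tested. The first 2 windows below hold the rarer E2F word. The other 4 hold the hypoxia word, from 2 genes that were highest in that library (Ezh1 and Jarid2) and 2 that were lowest (Ezh2 and Ring1). Capitals mark every match of that word in the window, 5′ to 3′ on the strand of the gene (CACGC and CACGT are the word read on the other strand), and a match is not shown to be a site in use.
Ezh2, chr6:47595009-47595038, minus strand: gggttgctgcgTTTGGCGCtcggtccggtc
Suz12, chr11:79992876-79992905, plus strand: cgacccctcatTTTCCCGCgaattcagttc
Ezh1, chr11:101226454-101226483, minus strand: gggaggcgcgggGCGTGgccgcggcgcagg
Jarid2, chr13:44730622-44730651, plus strand: tcgCACGCgggaCACGTccaagcgtttgtt
Ezh2, chr6:47595175-47595204, minus strand: ctgtcactcgcgCACGCgctggtgagcctc
Ring1, chr17:34024709-34024738, minus strand: gttccacggcgcGCGTGgcgcgcgagggcg

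Levels between genes were compared per transcript length, as RPKM (the read count corrected for library size and for each kilobase of transcript). On this scale MD1 was lower for genes as a whole, with a median log2 fold change of -0.096 over all autosomal genes tested. Lower MD1 means in RPKM are therefore not read as changes of single genes. Hnrnpk, which encodes an abundant RNA-binding protein, was the highest of the 10, with 85.9 ± 13.1 RPKM in MD1 (SD, n = 4) and 90.3 ± 3.84 RPKM in WT (SD, n = 6). The PRC2 enzyme Ezh2 came next at 43.1 ± 7.29 RPKM in MD1 and 44.2 ± 1.29 RPKM in WT. Its paralogue Ezh1, more typical of tissues that have stopped dividing, was ninth at 3.27 ± 1.28 RPKM in MD1 and 2.47 ± 0.17 RPKM in WT. Rnf2, the PRC1 ubiquitin ligase, stood at 33.1 ± 5.95 RPKM in MD1 and 35.0 ± 2.47 RPKM in WT, and its paralogue Ring1 at 8.59 ± 2.80 RPKM in MD1 and 9.53 ± 1.40 RPKM in WT. Of the paralogues that define the Xist-linked PRC1 complexes, Pcgf3 was at 9.91 ± 2.72 RPKM in MD1 and 11.2 ± 0.75 RPKM in WT, while Pcgf5 was the lowest of the 10 at 0.86 ± 0.28 RPKM in MD1 and 0.73 ± 0.12 RPKM in WT. Over the 3 MD1 libraries without MD1 female replicate 4, the mean was 91.9 ± 6.20 RPKM for Hnrnpk, 46.5 ± 3.20 for Ezh2 and 35.1 ± 5.55 for Rnf2. It was then 11.2 ± 1.17 RPKM for Pcgf3, 9.76 ± 1.90 for Ring1, 2.63 ± 0.18 for Ezh1 and 0.72 ± 0.085 for Pcgf5, each closer to its WT mean than the mean of all 4, except for Ezh2. Each gene's WT values lay clear of those of the next gene in the order, except that Rnf2 overlapped Suz12 and Pcgf3 overlapped Ring1.

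**Figure D1:**
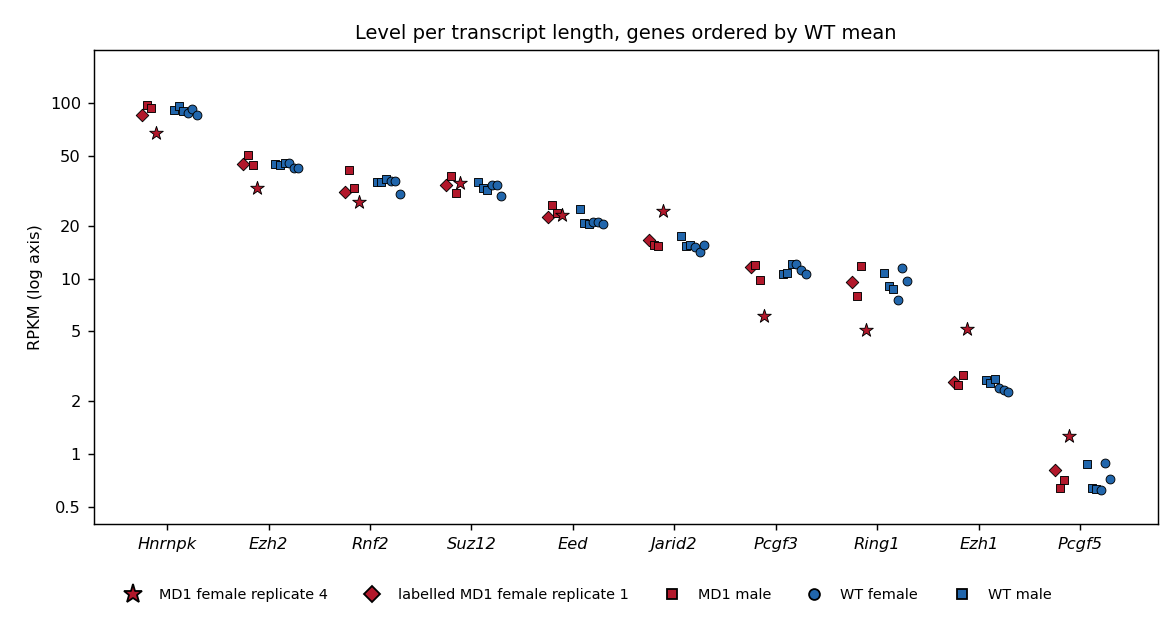
Level per transcript length (RPKM, log axis) of each of the 10 genes in every library, MD1 in red left of WT in blue, with the genes ordered by their WT mean. The WT means run from 90.3 RPKM for Hnrnpk to 0.73 RPKM for Pcgf5, and the star, MD1 female replicate 4, is the highest library for Ezh1, Jarid2 and Pcgf5 and the lowest for Hnrnpk, Ezh2, Rnf2, Pcgf3 and Ring1. On this scale the median log2 fold change of MD1 over WT was -0.096 over all autosomal genes tested.

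None of the 10 genes passed the threshold between MD1 and WT. Across all 15452 autosomal genes tested by edgeR's quasi-likelihood test, 12 were called (0.0777%), and 0 of 10 does not stand apart from that share. At an unadjusted p under 0.05 there were 2 of the 10, Ezh1 and Eed, where 9.79% of all autosomal genes met that mark. There were 0 of the 10 without MD1 female replicate 4, where 5.84% of all autosomal genes met it and 0.0835% were called. DESeq2, limma-voom and limma on log2 RPKM called 0 of the 10 as well, with 2, 1 and 0 at an unadjusted p under 0.05 (10.8%, 11% and 8.3% of all genes). The fitted log2 fold changes were above 0 for 6 genes and below 0 for 4, with a median of 0.09, against a median of 0.003 over all genes tested. Their median size was 0.14, against 0.15 over all genes. In no gene did the 4 MD1 libraries lie wholly above the 6 WT libraries (0.99% of all genes) or wholly below them (1.06%). The FNP is a mixture of cells, and in such bulk RNA fewer cells of a type and less RNA per cell cannot be told apart.

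Among the PRC2 genes, Ezh2 had 330, 374, 337 and 295 CPM in MD1 (replicates 1 to 4), against a lowest of 314, a median of 327 and a highest of 339 CPM in WT. MD1 male replicate 2 was above every WT library and MD1 female replicate 4 below every one. The log2 fold change was 0.03 (SE 0.07, 95% confidence interval -0.12 to 0.19, adjusted p = 0.880), and the same interval as a fold was 0.917 to 1.14. Between WT libraries, 1.27% of autosomal genes varied less than Ezh2 on the log2 scale. Its mean level was above that of 97.5% of autosomal genes, and this ranking was not corrected for level.

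Eed, the subunit that binds methylated histone H3, had 94.1, 112, 102 and 118.997 CPM in MD1 and a lowest of 85.9, a median of 88.2 and a highest of 107 CPM in WT. MD1 male replicate 2 and MD1 female replicate 4 were above all WT libraries, and WT male replicate 1 was above the other 2 MD1 libraries. The fitted change was 0.24 on the log2 scale (SE 0.09, interval 0.04 to 0.43, adjusted p = 0.496). Without MD1 female replicate 4 it was 0.18 with an interval of -0.002 to 0.37. Suz12, which PRC2 needs for its stability, had 186, 212, 173 and 234 CPM in MD1, against 161, 182 and 198 CPM as the lowest, median and highest in WT. The same 2 MD1 libraries were above every WT library, and the log2 fold change was 0.15 (SE 0.09, adjusted p = 0.556).

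Jarid2, the PRC2 partner that reads the ubiquitin mark, was split within MD1. It had 178, 167, 169 and 314 CPM in MD1 replicates 1 to 4, and 155, 164 and 191 CPM as the lowest, median and highest in WT. Only MD1 female replicate 4 lay above the WT libraries. Its log2 fold change was 0.31 (SE 0.16, adjusted p = 0.518) with that library and 0.04 (SE 0.07, adjusted p = 0.954) without it. Ezh1 showed the same split, with 21.1, 20.6, 23.9 and 51.7 CPM in MD1 against 18.6, 20.2 and 22.1 CPM as the lowest, median and highest in WT. MD1 male replicate 3 also lay above the WT range, from 99 counts. The log2 fold change of Ezh1 was 0.53 (SE 0.23, interval 0.03 to 1.03, adjusted p = 0.502), and 0.09 (SE 0.10, interval -0.13 to 0.31, adjusted p = 0.914) without MD1 female replicate 4.

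**Figure D2:**
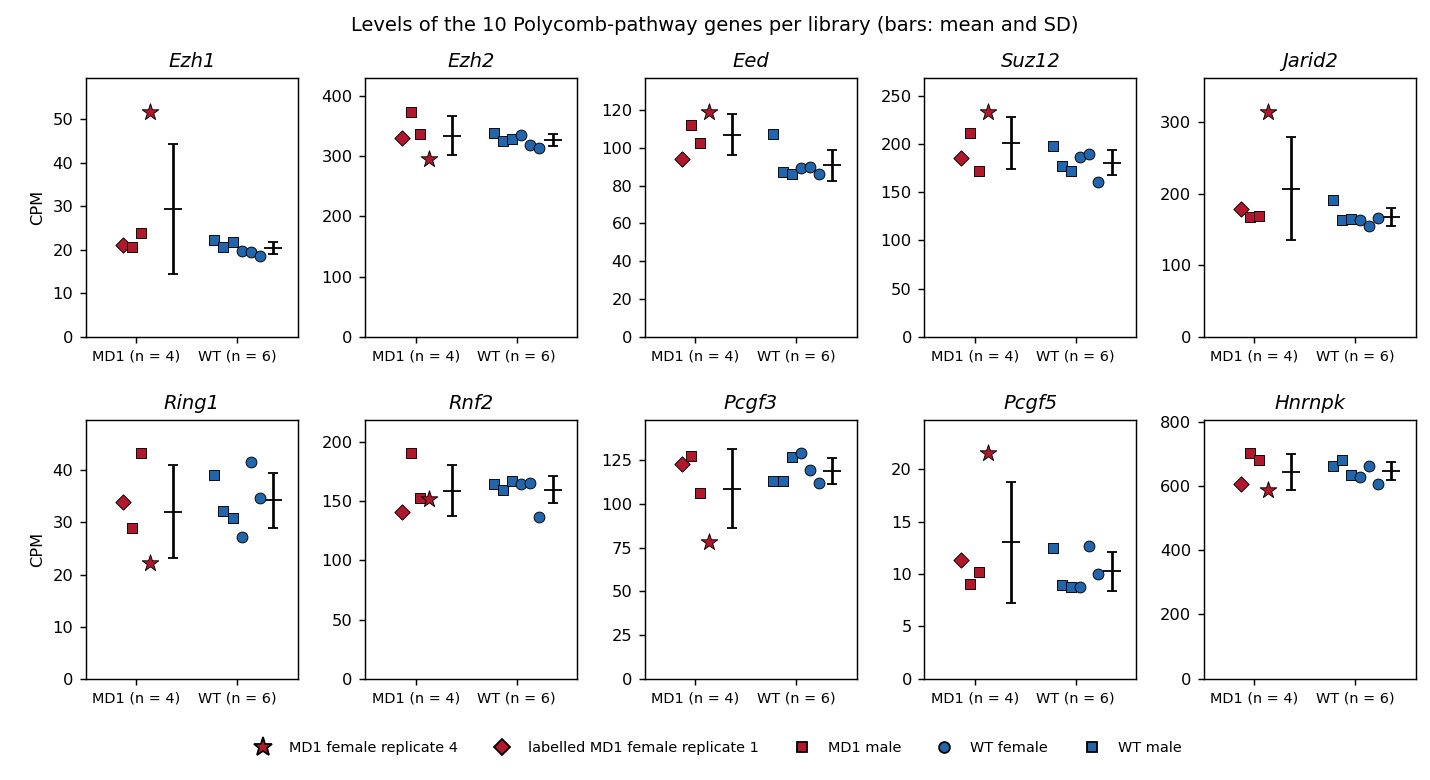
CPM of each of the 10 genes in every library, MD1 in red left of WT in blue, with bars for the mean and SD of the 4 MD1 and 6 WT libraries. The star marks MD1 female replicate 4, at 51.7 CPM for Ezh1 and 314 CPM for Jarid2, and the diamond marks the library labelled MD1 female replicate 1, whose values lie among those of the other libraries.

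Among the PRC1 genes, Rnf2 had 141, 191, 153 and 152 CPM in MD1, against 137, 165 and 167 CPM as the lowest, median and highest in WT. MD1 male replicate 2 was the only MD1 library outside the WT range. Its fitted log2 fold change was -0.01 (SE 0.09, interval -0.21 to 0.19, adjusted p = 0.982). Ring1 had 34.0, 28.9, 43.3 and 22.2 CPM in MD1, against 27.3, 33.4 and 41.5 CPM in WT. Of the 10 genes, Ring1 and Pcgf5 varied most between WT libraries (SD 0.22 for Ring1 on the log2 scale). Its log2 fold change was -0.11 (SE 0.17, adjusted p = 0.824).

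Pcgf3 had 123, 128, 106 and 78.2 CPM in MD1 and 112, 116 and 129 CPM as the lowest, median and highest in WT. MD1 male replicate 3 and MD1 female replicate 4 lay below every WT library. The log2 fold change was -0.13 (SE 0.12, adjusted p = 0.694), and 0.01 (SE 0.08, adjusted p = 0.989) without MD1 female replicate 4. Pcgf5 moved the other way in that library, with 11.3, 9.07, 10.2 and 21.5 CPM in MD1 against 8.74, 9.48 and 12.7 CPM in WT. It was the most thinly covered of the 10, from 42 to 283 counts per library, and the widest in spread between WT libraries (SD 0.25 on the log2 scale). Its log2 fold change was 0.37 (SE 0.24, adjusted p = 0.577) with MD1 female replicate 4 and 0.01 (SE 0.17, adjusted p = 0.993) without it.

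Hnrnpk, the link from Xist RNA to PRC1, had 608, 702, 683 and 588 CPM in MD1, against 607, 650 and 682 CPM as the lowest, median and highest in WT. MD1 male replicate 2 was above the WT range, and MD1 female replicate 4 was below it. MD1 male replicate 3 was above it by a narrow margin only (683 against 682 CPM). In RPKM, MD1 male replicate 3 lay within the WT range (93.3 against 85.0 to 96.2 RPKM). The log2 fold change was -0.004 (SE 0.07, adjusted p = 0.986), with an interval of 0.896 to 1.11-fold.

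MD1 female replicate 4 lay outside the range of the other 9 libraries for 9 of the 10 genes, as the highest for Ezh1, Eed, Suz12, Jarid2 and Pcgf5 and the lowest for Ezh2, Ring1, Pcgf3 and Hnrnpk. The exception was Rnf2. That library was outside the range of the others for 61.6% of all autosomal genes. On the deposited RPKM scale it was outside for 8 of the 10, the highest for Ezh1, Jarid2 and Pcgf5 and the lowest for Ezh2, Ring1, Rnf2, Pcgf3 and Hnrnpk, so that only its place for Eed, Suz12 and Rnf2 changed with the scale. It lay 1.34 above the WT mean on the log2 scale for Ezh1, 1.08 for Pcgf5 and 0.91 for Jarid2, and its values for Pcgf3 and Ring1 were -0.60 and -0.61 from the WT mean. Without it, the fitted log2 fold changes of the 10 genes lay between 0.01 for Pcgf3 and 0.18 for Eed, and the adjusted p values between 0.839 for Eed and 0.993 for Pcgf5. Suz12 was then at 0.08, Ezh2 at 0.09, Hnrnpk at 0.04, Ring1 at 0.03 and Rnf2 at 0.02. The erythroid and hypoxia markers that were high in the same library were given above, with those of endothelium, and their part in these values was not tested. Listed cell cycle genes had a summed level of 4240 CPM in that library, against 4814 to 4950 CPM in WT. Summed hypoxia markers were 3010 CPM in MD1 female replicate 1 as labelled and 2888 CPM in WT male replicate 1, the highest WT library.

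**Figure D3:**
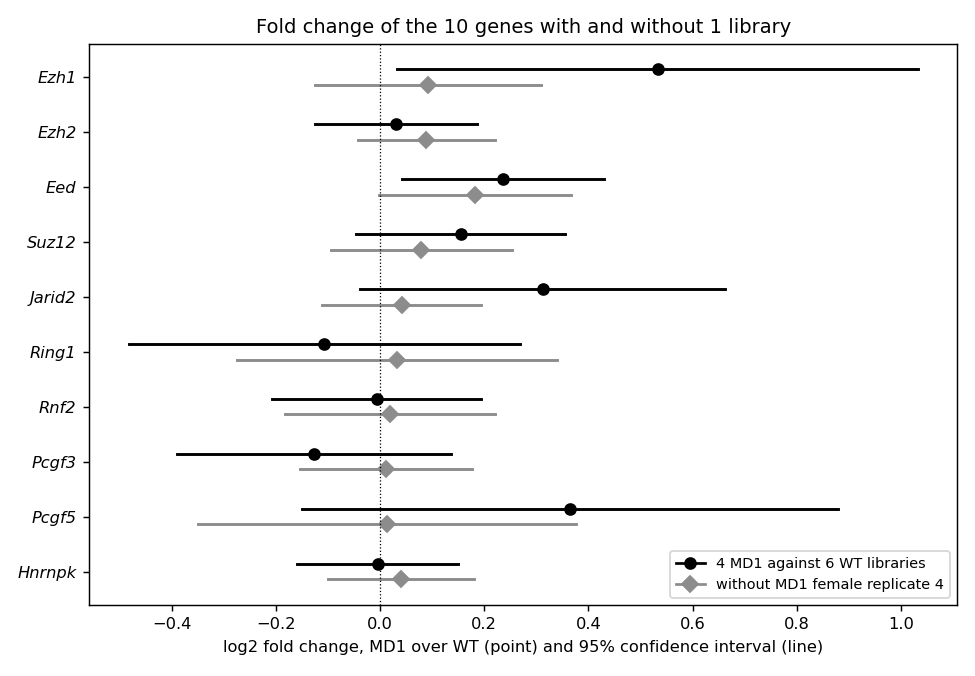
Log2 fold change of MD1 over WT for each of the 10 genes (points) with 95% confidence intervals (lines), in black from all 10 libraries and in grey without MD1 female replicate 4. Ezh1 lies at 0.53 with that library and at 0.09 without it, while Eed keeps most of its size (0.24 and 0.18).

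The design holds both labelled sexes, and Xist-dependent recruitment of these proteins takes place in females, so the effect was also fitted within each sex. In labelled males, where both MD1 libraries have Y-linked reads, 0 of the 10 genes passed (0.0188% of all genes called), and 0 of the 10 had an unadjusted p under 0.05 (3.8% of all genes). Log2 fold changes of MD1 over WT in males lay between -0.06 for Pcgf5 and 0.20 for Eed. In labelled females 0 of the 10 passed (0.00626% of all genes), with Ezh1 at 0.91 (SE 0.28, adjusted p = 0.171), Jarid2 at 0.61 (SE 0.19, adjusted p = 0.170) and Pcgf5 at 0.65 (SE 0.28, adjusted p = 0.252). These 3 genes had an unadjusted p under 0.05, as did 19.1% of all genes. Without MD1 female replicate 4, which leaves the library labelled MD1 female replicate 1 alone in its group and assumed to vary like the others, Ezh1 was at 0.13 (SE 0.16), Jarid2 at 0.15 (SE 0.11) and Pcgf5 at 0.12 (SE 0.27). Then 0 of the 10 genes passed (0.112% of all genes called) and 0 had an unadjusted p under 0.05, where 3.48% of all genes did. With all libraries and no filter on low counts, Ezh1 (adjusted p = 0.0365) and Jarid2 (adjusted p = 0.0347) passed, where 3.09% of all genes were called. The difference between the sexes in the MD1 effect was called for 0 of the 10 genes and 0% of all genes. The same model, fitted with all 10 libraries, also left Xist uncalled between WT females and WT males. Its null results by sex, and for this difference, therefore cannot show that the 10 genes do not differ. Of the 10 genes, 1, Jarid2, had an unadjusted p under 0.05 (difference 0.65, SE 0.27, adjusted p = 0.473), where 10.4% of all genes did. The difference for Jarid2 was 0.18 (SE 0.15) without MD1 female replicate 4, where 0 of the 10 and 4.48% of all genes met that mark and 0 of the 10 and 0.0435% of all genes were called.

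The labelled female group mixes a library with Y-linked reads and the library that stands apart. With the library labelled MD1 female replicate 1 left out, MD1 female replicate 4 was the only MD1 female library, and it was assumed to vary like the other groups. Then 6 of the 10 genes passed, where 33.8% of all genes were called. On the log2 scale Ezh1 rose by 1.42 (SE 0.14, adjusted p = 3.53e-05), Pcgf5 by 1.04 (adjusted p = 0.00813), Jarid2 by 0.96 (SE 0.11, adjusted p = 7.4e-05), Eed by 0.43 (adjusted p = 0.0257) and Suz12 by 0.38 (adjusted p = 0.0477), and Pcgf3 fell by 0.62 (adjusted p = 0.00506). In that fit the difference between the sexes was called for Ezh1, Jarid2, Pcgf3 and Pcgf5, 4 of the 10, and for 22.6% of all genes. These values describe 1 library against 3 WT female libraries, and the condition cannot be told apart from that library.

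Within WT, where the labels and the Y-linked reads match, the levels of the 10 genes were compared between sexes. Fitted with all 10 libraries, 0 of the 10 genes and 0% of all genes were called. That fit left even Xist uncalled, at 0.596 to 2.08 CPM in WT males and 2594 to 2695 CPM in WT females. Its result therefore cannot show that the 10 genes do not differ. With the 6 WT libraries alone, 26 of 16110 genes were called (0.161%) and 0 of the 10, none of which had an unadjusted p under 0.05 (3.02% of all genes). The log2 differences, female over male, lay between -0.16 for Ezh1 (interval -0.39 to 0.07) and 0.07 for Pcgf5 (interval -0.36 to 0.50). For Hnrnpk the difference was -0.06 (interval -0.21 to 0.08).

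Ratios of paralogues within a library do not depend on how libraries are scaled. The log2 ratio of Ezh1 to Ezh2 counts was -3.97, -4.18, -3.81 and -2.51 in MD1 replicates 1 to 4, and between -4.09 and -3.92 in WT. MD1 female replicate 4 stood far above the rest, where Ezh1 was 0.157 of the Ezh2 level per length, against 0.0529 to 0.0592 in WT libraries. The mean difference, MD1 minus WT, was 0.39 (exact permutation test over 210 arrangements, 2-sided, p = 0.167, adjusted over the 3 ratios 0.493, the smallest p it can give being 0.00476). Without that library the difference was 0.02. The log2 ratio of Ring1 to Rnf2 was -2.05, -2.72, -1.82 and -2.77 in MD1 and between -2.60 and -1.98 in WT, so that 2 MD1 libraries lay below the WT range and 1 above it. Its mean difference was -0.11 (exact permutation p = 0.633, adjusted 0.633), and 0.03 without MD1 female replicate 4. The log2 ratio of Pcgf3 to Pcgf5 was 3.44, 3.82, 3.39 and 1.86 in MD1 and between 3.18 and 3.88 in WT, with a mean difference of -0.42 (exact permutation p = 0.329, adjusted 0.493) that became -0.0005 without MD1 female replicate 4. In that library Pcgf3 was 4.81 times the level of Pcgf5 per length, while the WT libraries had 12.0 to 19.5 times.

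**Figure D4:**
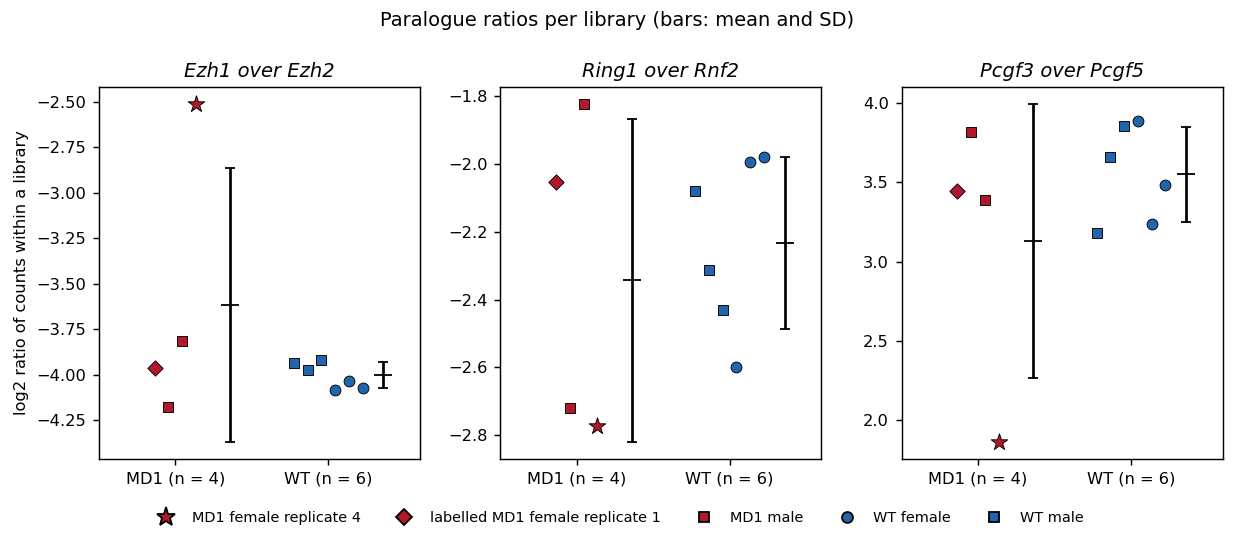
Log2 ratio of counts of each pair of paralogues within a library, MD1 in red left of WT in blue, with bars for the mean and SD of the 4 MD1 and 6 WT libraries. MD1 female replicate 4 (star) is highest for Ezh1 over Ezh2 at -2.51 and lowest for Pcgf3 over Pcgf5 at 1.86.

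Further genes were read from 6 lists of 63 genes, which hold other Polycomb subunits, enzymes that remove their marks and partners of Xist RNA. Of these, 54 are autosomal and passed the filter, 8 are X-linked and 1, Scml4, was too low to be tested. None of the 54 passed the threshold in edgeR, DESeq2, limma-voom or limma on log2 RPKM, and at an unadjusted p under 0.05 there were 6, 7, 6 and 2. These are 11.1%, 12.96%, 11.1% and 3.70% of the 54, beside 9.79%, 10.8%, 11% and 8.3% of all autosomal genes. Without MD1 female replicate 4, 0 of the 54 passed in edgeR and 3 had an unadjusted p under 0.05 (5.56%, beside 5.84% of all genes). With all libraries, 4 of those 6 were higher and 2 lower, out of 29 higher and 25 lower in all, and the median log2 fold change was 0.02. Of the 8 accessory genes of PRC2, Lcor had the highest log2 fold change at 0.28 (SE 0.17, adjusted p = 0.558) and Phf19 the lowest at -0.27 (SE 0.28, adjusted p = 0.716), and without MD1 female replicate 4 they were at 0.07 and -0.08. Of the 11 canonical PRC1 genes tested, the chromodomain gene Cbx8 was the highest at 0.85 (SE 0.39, adjusted p = 0.506). Cbx8 stood at 25.5 ± 23.9 CPM in MD1 and 14.4 ± 1.46 CPM in WT, with MD1 female replicate 4 at 61.4 CPM and the other MD1 libraries at 11.9 to 15.2 CPM. Without that library its log2 fold change was -0.10 (SE 0.13). Its paralogue Cbx2 was the lowest at -0.29 (SE 0.26, adjusted p = 0.672), with 167 ± 75.04 CPM in MD1 and 205 ± 14.1 CPM in WT. Cbx2 was at 61.7 CPM in MD1 female replicate 4 and at 167 to 223 CPM in the other MD1 libraries, and its log2 fold change was -0.02 (SE 0.09) without that library.

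Of the 20 variant PRC1 genes tested, Mga, a DNA-binding subunit of the PCGF6 complex, was the highest at 0.30 (SE 0.12, adjusted p = 0.498) and Fbrsl1 the lowest at -0.26 (SE 0.13, adjusted p = 0.518). The 8 tested genes of the H2A deubiquitinase, which removes the mark of PRC1, ran from Foxk2 at -0.15 (SE 0.11, adjusted p = 0.622) to Asxl2 at 0.13 (SE 0.10, adjusted p = 0.640). The autosomal demethylase of the PRC2 mark, Kdm6b, was at 0.13 (SE 0.17, adjusted p = 0.771). Among 6 partners of Xist RNA, Rbm15, which guides RNA methylation, was at 0.24 (SE 0.12, adjusted p = 0.518) and its partner in that task Wtap at -0.03 (SE 0.12, adjusted p = 0.932). With MD1 female replicate 4 left out, Mga was at 0.11, Fbrsl1 at -0.18, Foxk2 at -0.03, Asxl2 at 0.003, Kdm6b at -0.05, Rbm15 at 0.09 and Wtap at 0.10, so that Kdm6b and Wtap changed sign. Phc2, a canonical PRC1 subunit chosen here after its values were seen, had MD1 libraries wholly below WT, as did 1.06% of all autosomal genes. Phc2 was at 156 ± 19.2 CPM in MD1 and 186 ± 11.2 CPM in WT (log2 fold change -0.26, SE 0.09, adjusted p = 0.496). It was at 128 CPM in MD1 female replicate 4 and at 158 to 171 CPM in the other MD1 libraries, and its log2 fold change without that library was -0.18 (SE 0.07, adjusted p = 0.831).

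**Figure D5:**
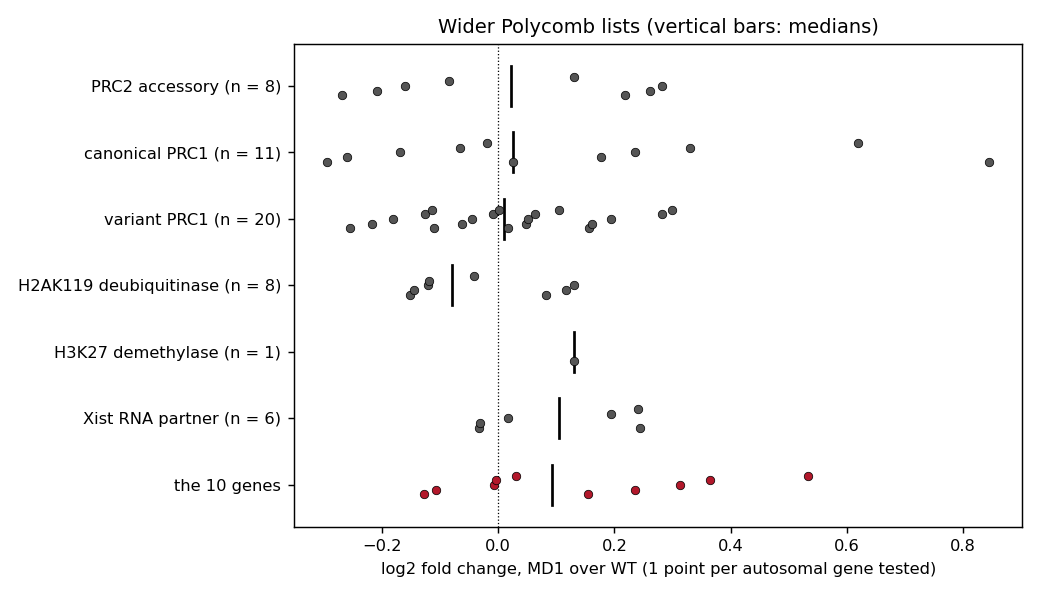
Log2 fold change of MD1 over WT for the 54 autosomal genes tested in 6 lists of Polycomb-related genes and Xist RNA partners (grey points, 1 per gene) and for the 10 genes (red points), with a bar at each median. The 10 genes have a median of 0.09 and all 6 lists together one of 0.02, and Cbx8, at 0.85 with MD1 female replicate 4 and -0.10 without it, is the farthest point to the right.

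The 8 X-linked genes of these lists were outside the autosomal fit and are given as levels. Ogt, whose enzyme attaches a sugar to nuclear proteins and binds the deubiquitinase, stood at 1422 CPM in MD1 female replicate 4, at 520 CPM in the other library labelled MD1 female and at 428 to 445 CPM in MD1 males, against 382 to 453 CPM over all WT libraries. Its partner Hcfc1 was at 256 CPM in MD1 female replicate 4, at 417 CPM in the other library labelled MD1 female and at 483 to 493 CPM in MD1 males, against 466 to 545 CPM in WT. Kdm6a, which removes the PRC2 mark and is known to escape X inactivation, was at 191 CPM in MD1 female replicate 4, against 120 to 127 CPM in WT females. It was 75.9 CPM in the other library labelled MD1 female and 82.4 to 92.4 CPM in MD1 males, against 79.8 to 95.4 CPM in WT males. Bcor, a PCGF1-complex subunit, reached 225 CPM in MD1 female replicate 4 and 152 CPM in the other library labelled MD1 female, against 110 to 144 CPM in WT females. It was at 132 to 151 CPM in MD1 males, against 123 to 165 CPM in WT males. The PRC2 histone chaperone Rbbp7 was at 221 and 222 CPM in the libraries labelled MD1 female, against 212 to 248 CPM in WT females, and at 246 and 263 CPM in MD1 males, against 226 to 238 CPM in WT males. Bcorl1 ranged from 26.1 to 38.1 CPM in MD1 and from 32.0 to 36.8 CPM in WT, Scml2 stayed at or under 12.4 CPM and AU022751 at or under 0.152 CPM in every library.

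The genes whose levels ran closest to each of the 10 were found by Pearson's correlation of log2 CPM over the 10 libraries, as a description in which all genes share the libraries and their depth. Jarid2 ran closest to Kdm3a (r = 0.994), which encodes a histone H3 demethylase, and to Rab3gap2 (r = 0.994). Without MD1 female replicate 4 these were 0.944 and 0.912 over 9 libraries. For Ezh1 the closest were Zfp383 (r = 0.983) and Gm16973 (r = 0.981), which dropped to 0.750 and 0.746 without that library. Ezh2 ran closest to Krit1 (r = 0.970, and 0.956 without it), Suz12 to Ppp3cb (r = 0.969, and 0.966 without it) and Eed to AW146154 (r = 0.972, and 0.961 without it). For the others the first matches were Ttpa for Pcgf3 (r = 0.988, and 0.965 without it), Gm26555 for Ring1 (r = 0.974, and 0.952 without it), Isoc1 for Hnrnpk (r = 0.972, and 0.960 without it) and Ccdc58 for Pcgf5 (r = 0.971, and 0.889 without it). Rnf2 was the only one of the 10 whose first match, Trim33 (r = 0.908), was higher without that library, at 0.957.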

How the data were processed

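RNA was sequenced as single-end reads from libraries made with a kit that does not mark strand. Per the study's methods and the submitters' processing notes, reads were trimmed (Trim Galore 0.4.4), aligned to GRCm38.p6 with HISAT2 2.0.5 and quantified in SeqMonk, whose strand setting is not given in the sources read here. The deposited files hold unnormalized counts per gene and log2 RPKM, which the authors scaled to library size and corrected for transcript length. Merged columns of each genotype, a signal averaged by the authors, were not used. Of 35591 rows of the deposited counts, 27 symbols that had become dates were restored and 49 repeated identifiers were dropped.

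Counts were tested in edgeR 4.0.16 (R 4.3.3) with filterByExpr (15982 genes kept), TMM scaling and the quasi-likelihood test, with Benjamini-Hochberg adjustment over all 15452 autosomal genes at 0.05. Effects by labelled sex came from 1 model with a mean per genotype and sex on all chromosomes. Depth ranged from 4195119 to 24125084 counts per library. CPM used TMM-scaled libraries and correlations a prior count of 2. Alternatives were DESeq2 1.42.0, limma 3.58.1, other scalings, no filter, sex or replicate number as a term, and leaving out libraries. Named genes were all 10 genes, the highest and lowest of each wider list, the 2 most similar genes of each (those given are a part) and genes that check the labels. The genes and lists were chosen with earlier results of these data known. No 2 libraries agreed within sampling noise.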

Additional observations from a re-analysis of the deposited data

Results flagged for a closer look

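In 26 sets of 4 or 6 values (10 genes and 3 ratios in each genotype), 5 held a library far from the others of its group by Dixon's criterion. Chance meets that criterion in about 1 of 20 sets, but these sets share their libraries and the ratios reuse the same genes. The rate therefore cannot tell whether 5 is more than chance would give. In MD1, MD1 female replicate 4 had 51.7 CPM of Ezh1, where the others had 20.6 to 23.9, and 314 CPM of Jarid2, where the others had 167 to 178. In WT, WT male replicate 1 had 107 CPM of Eed, where the others had 85.9 to 89.6, and 191 CPM of Jarid2, where the others had 155 to 166. Its summed hypoxia markers, 2888 CPM, were the highest in WT, and their part in these values was not tested. WT female replicate 6 had 137 CPM of Rnf2, where the others had 160 to 167.

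For 2 genes the MD1 libraries of the labelled sexes lay on opposite sides of the WT mean of their sex. The female mean minus the male mean was 0.59 on the log2 scale for Jarid2 and -0.15 for Hnrnpk. Neither difference was called in edgeR's interaction test (adjusted p = 0.473 and 0.607). That test called 0% of all genes, so it cannot show that the 2 genes do not differ. Also, 1 of the 2 libraries labelled MD1 female has Y-linked reads.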

How the results depend on the processing

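No alternative brought any of the 10 genes, or of the 54 genes of the wider lists, past the threshold between MD1 and WT (20 alternatives each). The number of autosomal genes called was 12, and it was 51 with DESeq2, 4 with limma on log2 RPKM, 6 without both libraries labelled MD1 female, 0 with the replicate number as a block and 4 to 13 when each library was left out in turn (4 without WT replicate 2 or MD1 replicate 1). The causes were not tested. Same-numbered libraries did not deviate together (correlations of 0.002, -0.074, 0.050 and -0.12), and the numbers were read here as names of libraries only. These correlations cannot show that no pairing exists, as they include the library labelled MD1 female replicate 1 set against a WT male, and MD1 female replicate 4. With the replicate block 0 of the 10 genes and 362 of all had an unadjusted p under 0.05, where 1513 had without it. Within labelled females 2 genes passed with no filter and 0 to 6 when a library was left out. The difference between sexes gave 0 to 4, with the highest value in both cases without MD1 replicate 1.

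Directions turned for 6 of the 10 genes, none of them past the threshold. For 5 the fold change lay between -0.13 and 0.03, and for Pcgf5 it was 0.37, the second highest of the 10. Ezh2 was -0.0044 with total-count scaling and -0.052 with limma on log2 RPKM, and ranged from -0.030 to 0.089 over the libraries left out. In those first 2 settings the median over all autosomal genes was also lower, at -0.036 and -0.096, against 0.003 in the main fit. Ezh2 stayed above the median in both, so its sign there moved with a shift of all genes. Without both libraries labelled MD1 female, Ring1 was 0.051, Rnf2 0.12, Pcgf5 -0.089 (against 0.37 with all libraries) and Hnrnpk 0.10, and with DESeq2 size factors Hnrnpk was 0.00074. Over the libraries left out, Ring1 ranged from -0.26 to 0.032, Rnf2 from -0.11 to 0.048, Pcgf3 from -0.21 to 0.011, Hnrnpk from -0.049 to 0.040 and the ratio of Ring1 to Rnf2 from -0.28 to 0.034. Depth limits Pcgf5 most, with 42 counts in its shallowest library.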
